A study of Mus musculus with 12 samples.

Results

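The subject is a set of 117 genes of labelled lung cells that stood higher at day 10 than at day 5 after the injection of tumour cells, while unlabelled lung cells changed little between the days. They were chosen from the 32958 rows of the deposited table, of which 15842 passed the filter on low values, and all 117 are among those. The animals were Balb/c females aged 6 to 10 weeks, given an intravenous injection of a labelling version of 4T1, a metastatic breast carcinoma line of the mouse that seeds the lung, and no group without tumour cells was used here. The 4 groups, with 3 libraries each, are day 5 Cherry-, day 5 Cherry+, day 10 Cherry- and day 10 Cherry+ cells, all sorted as CD45-Ter119- to remove leukocytes and red blood cells. The gate does not itself remove tumour cells, and the labels do not say what Cherry marks, how many mice entered a library, or whether replicates are separate mice, so the spread between libraries may be technical in part.

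As background, tumour cells that lodge in the lung change the stromal, endothelial and epithelial cells around them, and this local tissue is called the metastatic niche. Such labelling tumour lines secrete an mCherry protein able to enter cells nearby, so that Cherry+ cells mark the surroundings of tumour cells and Cherry- cells the lung further away. Micrometastases grow over the days after the injection, and the series asks how the CD45- niche differs between its stages. The data are bulk RNA of a mixed gate, so a change in the share of a cell type and a change in RNA per cell cannot be told apart.

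The members were chosen by their values. Levels are the deposited log2 values, and the difference between the group means of day 10 and day 5 in Cherry+ cells is called the rise. The rise had to be at least 0.75, the lowest day 10 Cherry+ library had to lie above the highest day 5 Cherry+ library, and the Cherry- means of the days had to differ by less than 0.5. The highest of the 4 group means had to be at least 7, and Cherry+ minus Cherry- at day 5 had to lie between -2.75 and 1.75. Applied in that order, the conditions were met by 572, 250, 171, 120 and 117 genes. The smallest rise of a member was 0.755, and the largest among the 1040 genes that failed only this condition was 0.749. The largest absolute change in Cherry- cells was 0.482 inside the limit and the smallest outside it 0.507. The highest group mean of a gene came down to 7.03 inside the limit and was at most 6.996 outside it. The narrowest gap between the Cherry+ libraries of the days was 0.0028, and 91 genes failed on this condition alone, the nearest by 0.0007. All differences described below were computed from the libraries that chose the members, so they are descriptions.

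The deposited identifiers belong to the UCSC known-gene series, and 0 of 32958 matched the name tables used here. No name, function, position or sequence can therefore be given for a member, and neither the sort nor markers of any cell type could be checked. A total of 4 members are identified below by the rule for named genes, namely the 2 with the largest rise and the 2 lowest in Cherry+ relative to Cherry- cells at day 10.

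Among the 12 libraries 3 were taken to stand apart from their groups on the first principal component of all genes tested, which separates Cherry+ from Cherry- cells. They were picked without a numerical limit. Day 5 Cherry+ replicate 3 lay at 22.2 against 55.0 and 61.7, day 10 Cherry+ replicate 3 at 100.1 against 58.1 and 67.7, and day 5 Cherry- replicate 1 at -75.5 against -65.8 and -65.9. The counts of members called and the membership are given below with and without these 3 libraries.

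The members were of middling abundance and moved up the ranking of genes in late niche cells. Their median level in Cherry+ cells was 8.26 ± 0.26 at day 5 and 9.26 ± 0.23 at day 10, and in Cherry- cells 8.48 ± 0.09 and 8.59 ± 0.14 (mean ± SD of the library medians, n = 3). By library, the median was 8.50, 8.39 and 8.56 in day 5 Cherry- cells and 8.28, 8.51 and 7.99 in day 5 Cherry+ cells. It was 8.64, 8.69 and 8.43 in day 10 Cherry- cells and 9.01, 9.30 and 9.47 in day 10 Cherry+ cells. The 3 late niche libraries were thus the highest of the 12, and the lowest was day 5 Cherry+ replicate 3. Ranked among all genes tested, the median member stood at percentile 43.2 ± 2.87 of Cherry+ cells at day 5 and 57.6 ± 3.44 at day 10. In Cherry- cells it stood at 45.4 ± 1.27 and 46.6 ± 1.83 (SD, n = 3).

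**Figure D1:**
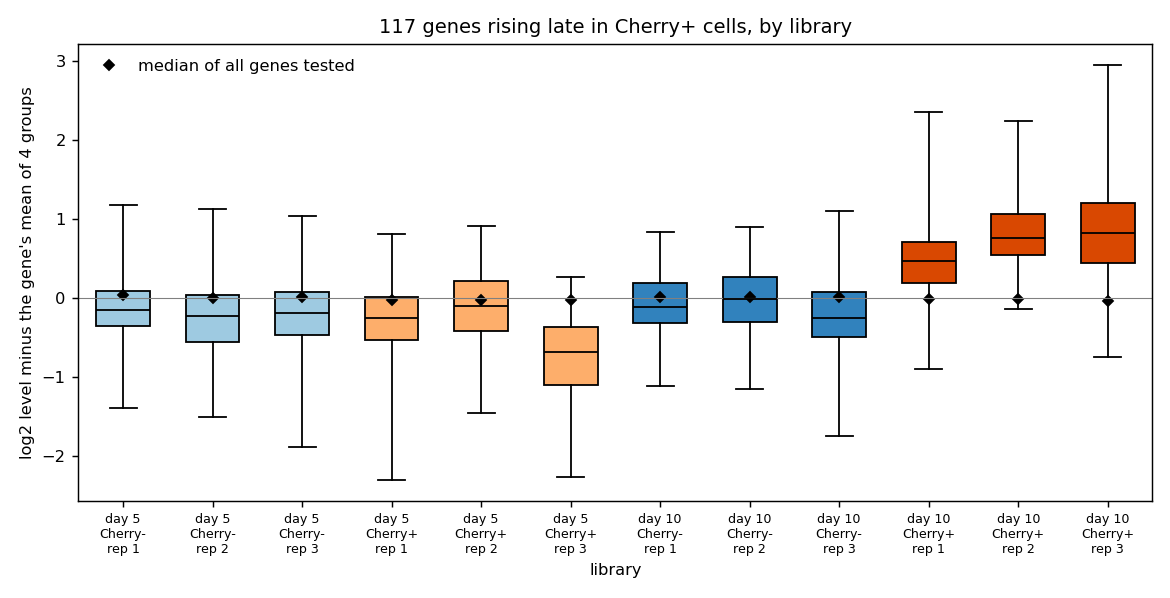
Levels of the 117 members in each of the 12 libraries (log2 units, each gene's mean of the 4 group means subtracted). Boxes span the quartiles with the median as a line, whiskers reach the lowest and highest member, and diamonds give the median of all 15842 genes tested. Member medians reach 0.46, 0.76 and 0.82 in the day 10 Cherry+ libraries and -0.69 in day 5 Cherry+ replicate 3.

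The rise had a median of 0.95 log2 units, or 1.93-fold, against -0.02 over all genes tested. Its quartiles were 0.84 and 1.18, and it reached 3.40. A rise of at least 1 was seen in 46 members, of at least 1.5 in 13 and of at least 2 in 6. The change of the same genes in Cherry- cells had a median of 0.08 (all genes tested: -0.005) and was positive in 78 members and negative in 39. Replicates of the members were wider apart in Cherry+ cells, with a median SD of 0.32 at day 5 and 0.35 at day 10, than in Cherry- cells, with 0.17 and 0.20. Over all genes tested these medians were 0.26, 0.25, 0.18 and 0.16 in the same order.

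**Figure D2:**
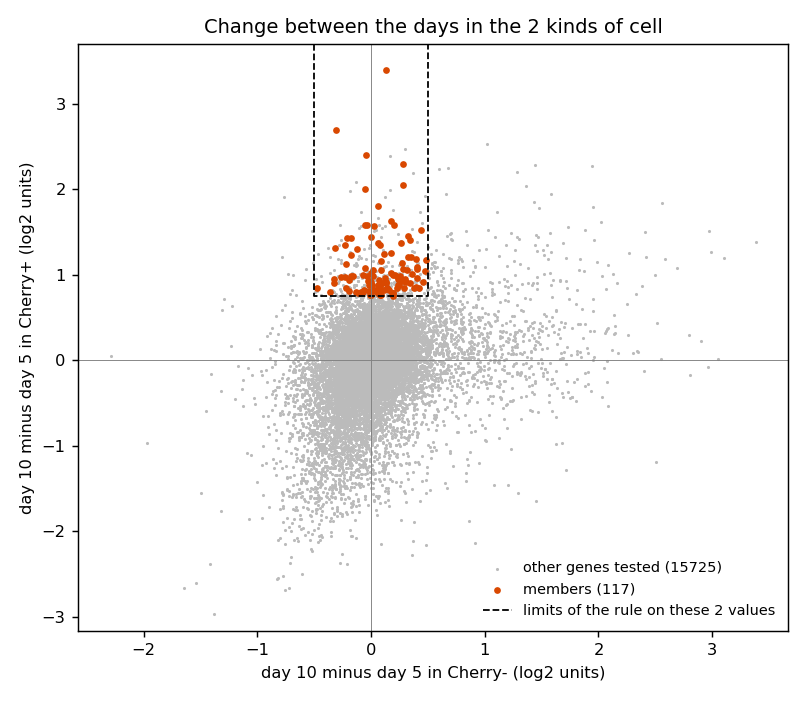
Day 10 minus day 5 in Cherry+ cells (vertical) against the same difference in Cherry- cells (horizontal), in log2 units, 1 point per gene tested. The 117 members, in orange, fill the dashed area that the rule set, from 0.755 to 3.40 on the vertical axis, most of them in its lower part.

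Among the members, lower starting levels went with larger rises. The 26 members with a day 5 Cherry+ level under 7 had a median rise of 1.13 and held the largest value. The 56 members between 7 and 9 had a median of 0.94 and the 35 members over 9 a median of 0.91. Across the 117 members the rise and the day 5 Cherry+ level were related with Pearson's r at -0.40 and Spearman's rho at -0.31. Over all genes tested r was -0.08, and the median rise was -0.022, -0.014 and -0.015 in the same 3 classes of level. Genes are not replicates, and both measures contain the same 3 libraries. With at least 7 required in some group, a gene of low starting level could enter only through a high level elsewhere.

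In limma, fitted over the 4 groups with adjustment over all genes tested, 66 of the 117 members were called higher at day 10 in Cherry+ cells at an adjusted p under 0.05 and 0 were called lower. Of all genes tested, 1.35% were called higher and 3.04% lower in this comparison, and 9.25% had their day 10 libraries entirely above those of day 5, which the rule required of members. Nothing is read from the members' share because the rule used these libraries. The count depended on single libraries, and the share of all genes called higher is given in brackets. Among the day 10 Cherry+ libraries, leaving out replicate 2 gave 0 (0%) and leaving out replicate 3 gave 37 (1.24%). Among those of day 5, dropping replicate 1 gave 23 (0.284%) and dropping replicate 3 gave 11 (0.164%). A Cherry- library enters only the estimate of the spread, yet dropping replicate 2 or 3 of day 5 gave 39 or 43 (0.6% or 0.739%). Dropping replicate 1 or 2 of day 10 gave 39 or 40 (0.549% or 0.543%). Without the 3 libraries that stand apart it was 47 (3.5% of all genes called higher). The count was also 0 with library quality weights and 0 in a fit restricted to the 6 Cherry+ libraries. In both of these fits 0% of all genes were called in either direction. Without the filter the count was 34 (0.329%). In Cherry- cells 0 members were called in limma between the days, where 0.366% of all genes were called higher and 0% lower. At an unadjusted p under 0.05 there were 3, where 7.64% of all genes tested passed. The rule required a small change in Cherry- cells, so these low counts follow from the selection and nothing is read from them.

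At day 5 the members did not share a position relative to Cherry- cells. Cherry+ minus Cherry- had a median of -0.10, from -2.29 to 1.36, and was negative in 70 members and positive in 47. The median of all genes tested was -0.04. The 3 Cherry+ libraries lay entirely below the 3 Cherry- libraries in 35 members (25.5% of all genes tested did so), entirely above in 14 (23.9%), and overlapped them in 68. In limma 27 members were called lower (19.4% of all genes) and 11 higher (18.9%). The 11 became 6 when Cherry- replicate 2 of that day was left out (15.5% of all genes called higher). They became 5 without Cherry+ replicate 2 (13.9%) and 19 without Cherry+ replicate 3 (21.2%). Without this last library the median difference also changed sign, to 0.019. The balance of the calls turned without the 3 libraries that stand apart, with 30 members higher and 24 lower (23.7% and 24.8% of all genes), and with library quality weights, with 33 and 30 (27.7% and 29.4%).

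At day 10 most members lay above Cherry- cells. The difference had a median of 0.82 log2 units, or 1.77-fold, from -1.27 to 3.19, and was positive in 99 members and negative in 18. Over all genes tested its median was -0.05, and 46.8% were positive. The Cherry+ libraries lay entirely above the Cherry- libraries in 77 members, where 26% of all genes did so, and entirely below in 5, where 28.1% did so. In 75 members the 3 day 10 Cherry+ libraries were the highest of all 12, against 4.65% of all genes tested. In limma 70 members were called higher (17.4% of all genes) and 4 lower (21.5%). Without day 10 Cherry- replicate 1 the counts were 61 and 2 (12.4% and 17.1% of all genes). They were 57 and 2 without replicate 2 (12.3% and 17.7%) and 53 and 3 without replicate 3 (12.6% and 18.1%). Without day 10 Cherry+ replicate 2 they were 55 and 4 (12.9% and 18.2%), and without replicate 3 58 and 4 (14.2% and 18.2%). Leaving out day 5 Cherry+ replicate 3 gave 78 and 6 (20.5% and 23%). Without the 3 libraries that stand apart, 77 were called higher and 7 lower (21.6% and 23.1% of all genes). A rise in Cherry+ cells with little change in Cherry- cells moves this difference upwards by construction, so these counts are no independent evidence of a late difference.

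**Figure D3:**
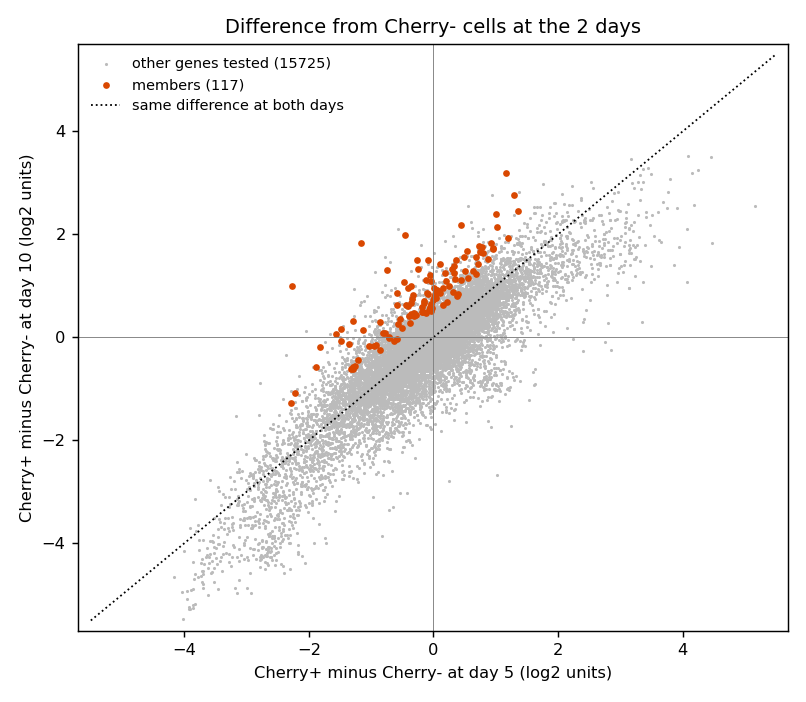
Cherry+ minus Cherry- at day 10 (vertical) against day 5 (horizontal), in log2 units, 1 point per gene tested, with the 117 members in orange. All members lie above the dotted line of equal difference, by 0.42 to 3.27, and they spread over the horizontal axis from -2.29 to 1.36.

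Seen over both days, the members fell into several patterns. The largest had overlapping libraries at day 5 and Cherry+ above Cherry- at day 10, with 59 members (9.71% of all genes tested). Their median levels were 8.08 and 8.25 in Cherry- and Cherry+ cells at day 5 and 8.08 and 9.22 at day 10. Their differences from Cherry- cells lay between -0.59 and 1.17 at day 5, with a median of 0.04, and had a median of 0.96 at day 10. A further 9 overlapped at both days (32.1% of all genes tested), with a median day 10 difference of 0.51.

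The rule requires the Cherry+ minus Cherry- difference of every member to go up (the smallest increase was 0.42), so any deficit at day 5 had to narrow or turn. The 35 members that lay entirely below Cherry- cells at day 5 overlapped them at day 10 in 26 cases (6.3% of all genes tested showed this pattern), lay above them in 4 (0.133%) and stayed below in 5 (19.1%). In the 26, the median levels of Cherry- and Cherry+ cells were 9.41 and 8.51 at day 5 and 9.29 and 9.48 at day 10. Their difference moved from a median of -0.94 to 0.04. In the 5 that stayed below, the median difference went from -1.88 to -0.62. The 4 that crossed had a median difference of -0.55 at day 5 and 0.64 at day 10.

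The 14 members already above Cherry- cells at day 5 were all above at day 10 as well. This pattern was seen in 12% of members and 16.2% of all genes tested. For a gene above at day 5 the rule favours staying above, through a rise in Cherry+ and little change in Cherry- cells. Their median difference went from 0.83 to 1.68, and their median levels at day 10 were 8.62 in Cherry- and 10.24 in Cherry+ cells. Grouped by the size of the day 5 difference, the rise had a median of 0.96 in the 34 members at least 0.5 below Cherry- cells at day 5, 0.93 in the 62 within 0.5 and 0.98 in the 21 at least 0.5 above.

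**Figure D4:**
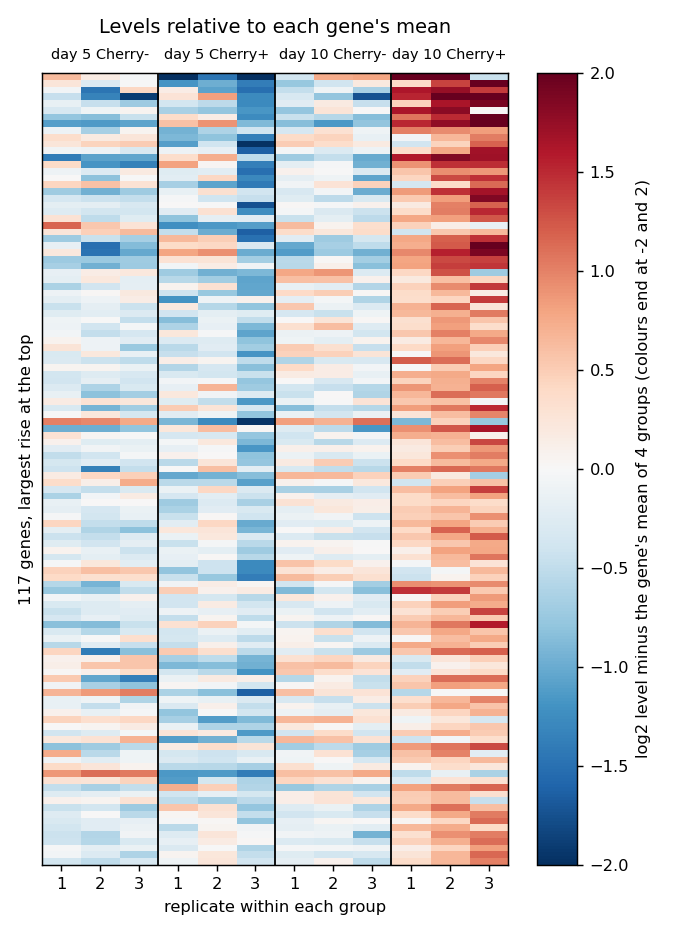
Levels of the 117 members (rows, by falling rise) in the 12 libraries (columns, 3 per group), in log2 units with each gene's mean of the 4 group means subtracted, red for higher and blue for lower. The day 10 Cherry+ columns are mostly red, and day 5 Cherry+ replicate 3 is the bluest column, lowest of its group in 86 of 117 members.

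The largest rise was that of uc008ppl.2. Its level was 7.38, 6.92 and 6.71 in the day 5 Cherry- libraries and 4.44, 5.28 and 4.47 in the day 5 Cherry+ libraries. At day 10 it was 6.36, 7.49 and 7.53 in Cherry- and 9.09, 8.99 and 6.31 in Cherry+ cells. All 3 Cherry+ libraries lay below Cherry- cells at day 5, whereas at day 10 replicates 1 and 2 lay above and replicate 3 lay below all 3 of them. The group mean went from 4.73 ± 0.48 to 8.13 ± 1.58 in Cherry+ cells (SD, n = 3), a rise of 3.40 ± 0.64 (SE) or 10.5-fold. It was 4.31 without day 10 Cherry+ replicate 3. Each SE of a named gene is limma's, from a single estimate of that gene's spread shared by the 4 groups. The SE is therefore the same in each comparison of a pair of groups and does not show the spread of that pair alone. The day 10 difference from Cherry- cells was 1.00 ± 0.64 (SE) with all libraries and 1.91 without that replicate. It was 0.52 without day 10 Cherry+ replicate 1, 0.57 without replicate 2 and 0.62 without day 10 Cherry- replicate 1. In limma the day 10 difference was not called (adjusted p 0.24), and the day 5 difference was.

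The next was uc007dic.1, at 7.19, 6.66 and 6.93 in day 5 Cherry- and 5.76, 5.95 and 5.55 in day 5 Cherry+ libraries. At day 10 the levels were 6.18, 6.54 and 7.14 in Cherry- and 7.32, 8.29 and 9.73 in Cherry+ cells. The groups did not overlap at either day, and Cherry+ cells changed from the lower to the higher side, so this gene is 1 of the 4 that crossed. Its rise was 2.69 ± 0.48 (SE) or 6.46-fold, between 5.76 ± 0.20 and 8.45 ± 1.21 (SD, n = 3). The Cherry+ minus Cherry- difference was -1.17 ± 0.48 at day 5 and 1.83 ± 0.48 at day 10 (SE). In limma the day 5 difference was not called (adjusted p 0.076), and the day 10 difference was. The late libraries covered a range of 7.32 to 9.73, and without replicate 3 the day 10 difference was 1.19.

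The members lowest in Cherry+ relative to Cherry- cells at day 10 were uc007peu.2 and uc009alq.1. The level of uc007peu.2 was 9.04, 8.99 and 8.78 in day 5 Cherry- and 7.11, 6.76 and 6.07 in day 5 Cherry+ libraries. At day 10 it was 8.85, 8.72 and 9.12 in Cherry- and 7.12, 8.49 and 7.28 in Cherry+ libraries. Cherry+ cells stayed below Cherry- cells, with differences of -2.29 ± 0.35 at day 5 and -1.27 ± 0.35 at day 10 (SE). Replicate 2 was the highest of the late Cherry+ libraries, and replicate 1 exceeded the highest day 5 library by only 0.011. The rise of 0.98 ± 0.35 (SE) was 0.55 without day 10 Cherry+ replicate 2. In limma this rise was not called (adjusted p 0.13), and the differences from Cherry- cells at both days were.

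For uc009alq.1 the libraries agreed more closely. They stood at 9.89, 10.15 and 10.06 in Cherry- and 7.88, 7.89 and 7.64 in Cherry+ cells at day 5. At day 10 they stood at 9.63, 9.62 and 9.78 in Cherry- and 8.52, 8.88 and 8.39 in Cherry+ cells. No groups overlapped within a day or between the days of Cherry+ cells. The rise was 0.80 ± 0.15 (SE), and the difference from Cherry- cells went from -2.23 ± 0.15 to -1.07 ± 0.15 (SE). The rise lay between 0.66 and 0.90 with any 1 library left out.

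**Figure D5:**
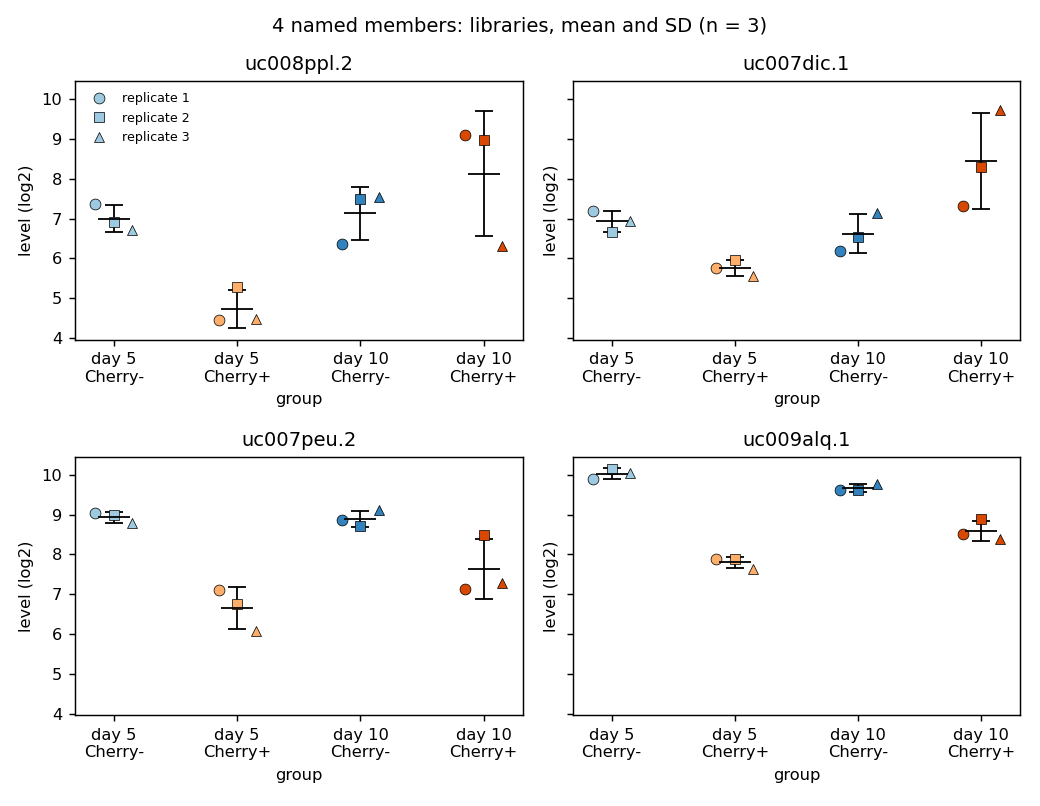
Levels (log2) of the 4 named members in the 4 groups, with a symbol for each replicate and black bars for mean and SD (n = 3). In uc008ppl.2 and uc007dic.1 Cherry+ cells go from 4.73 to 8.13 and from 5.76 to 8.45, and in uc007peu.2 and uc009alq.1 they remain below Cherry- cells at both days.

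The difference between the days in the Cherry+ minus Cherry- contrast was positive in all 117 members, which the rule fixes, with a median of 0.87 log2 units. Tested as an interaction in limma, 0 members passed an adjusted p under 0.05, as did 0% of all genes. At an unadjusted p under 0.05 there were 82 members, where 10.2% of all genes passed in either direction. The rule limits both the rise and the Cherry- change that make up this difference, so nothing is read from the 82. Leaving out Cherry+ replicate 1 of day 10 raised the number past the adjusted threshold from 0 to 9 (0.0821% of all genes called higher), leaving out replicate 3 of day 10 to 3 (0.0631%), and leaving out replicate 3 of day 5 to 1 (0.0189%). Without the 3 libraries that stand apart it was 13 (0.789%). All of these members were called higher. Its standard error had a median of 0.35 log2 units for the members and 0.31 for all genes.

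The pattern was uneven between the Cherry+ libraries. Day 5 Cherry+ replicate 3 was the lowest of its group in 86 of 117 members, against 38.8% of all genes tested. Day 10 Cherry+ replicate 1 was the lowest of its group in 88 members (36.3% of all genes), and replicate 3 the highest in 70 (42% of all genes). The 9 pairings of a day 10 with a day 5 Cherry+ library had median differences over the members between 0.46, for day 10 replicate 1 minus day 5 replicate 2, and 1.47, for day 10 replicate 3 minus day 5 replicate 3. The same pairings had medians of -0.05 to -0.004 over all genes tested. Whether this spread, and the place of both replicates 3 on the first component, has a part in the members' rise was not tested.

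Membership depended on the same libraries. With day 5 Cherry+ replicate 3 left out, 99 genes met the rule, 80 of them members, and the members' median rise was 0.82. The number of genes was 183 without day 5 Cherry+ replicate 1, 218 without replicate 2, 314 without day 10 Cherry+ replicate 1 and 207 without replicate 3. Without the 3 libraries that stand apart (day 5 Cherry- replicate 1 and replicate 3 of both Cherry+ groups), 228 genes met the rule. These include 54 of the 117 members, and 59 members kept a rise of at least 0.75. The median rise of the 117 was 0.76. The rise stayed above 0 in all 117, which the condition on overlap fixes whichever libraries are left out. After cyclic loess 120 genes met the rule, 108 of them members, and after quantile normalisation 130, of which 107 were members.

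Cherry- and Cherry+ libraries with the same day and replicate number share a letter in the submitters' sample codes, so they were also compared pair by pair. At day 5 the median of Cherry+ minus Cherry- over the members was -0.14, 0.16 and -0.42 in pairs 1, 2 and 3. At day 10 it was 0.50, 0.88 and 1.05. The 3 late pairs were all above 0 and the early pairs went both ways, whereas the median over all genes tested stayed between -0.08 and 0.03 in the 6 pairs. The difference was positive in 88, 105 and 104 of the 117 members in the late pairs (47.8%, 46% and 47.6% of all genes tested). It was positive in all 3 late pairs in 84 members, where 32.5% of all genes were. The pairs hold the libraries that chose the members, and the rule moves the late pairs upwards, so they are no independent evidence of a late difference.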

How the data were processed

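RNA of CD45-Ter119- lung cells was amplified and sequenced, per the labels' protocols. The authors deposited 1 table of log2 values for 12 libraries, and all its columns were matched to samples by their codes. Per the submitters' processing notes, the build was mm10 and the tools included Bowtie2, RSEM (1.2.29) and DESeq2 (1.12.4), with no step assigned to any. Which transform made the deposited log2 values is not stated. The library medians are nearly equal (8.70 to 8.82 over the genes tested), and 7764 rows hold 0 in every library. On a shrunken scale the differences of low genes may be understated, which was not tested. Depth is unknown.

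Genes were kept when at least 3 of 12 libraries reached 3.32 (10 on the linear scale). The 4 groups were fitted together in limma 3.58.1 (R 4.3.3) with a mean-dependent prior and 8 residual degrees of freedom, two-sided, with Benjamini-Hochberg adjustment within each of 5 comparisons. The procedure was tested on simulated data. "Groups apart" means that all 3 libraries of a group lie above all 3 of the other. The rule for named genes took the 2 largest rises and the 2 most negative day 10 differences. Members, lists, classes and tests were chosen with earlier results of these data known. Same-numbered Cherry- and Cherry+ libraries deviated together at day 5 (correlations 0.254, 0.161 and 0.228 over the genes tested). Gene lists and cell type markers were not tested, since no identifier has a name here. Figures were drawn with matplotlib 3.10.9.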

Additional observations from a re-analysis of the deposited data

Results flagged for a closer look

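In 11 members (9.4%) Cherry+ lay below Cherry- in all 3 same-numbered pairs at day 5 and above it in all 3 at day 10, a turn of direction seen in 0.915% of all genes tested. Their median difference went from -0.36 to 0.67 log2 units, and their median rise was 1.05. The rule that chose the members used the same libraries and favours such genes. Beyond the limma interaction, in which 0 members passed, the difference between the days was not tested for these genes. The gene uc007dic.1 is among them.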

How the results depend on the processing

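Fits without 1 library gave ranges of 99 to 314 for the 117 genes meeting the rule, 0 to 93 for the 66 members called in Cherry+ cells between the days, 0 to 9 for the 0 called for the difference between the days, and -0.25 to 0.019 for the median day 5 difference of -0.10. Without the 3 libraries that stand apart, these values were 228, 47, 13 and 0.057. The fits with 0 and 93 members called 0% and 2.56% of all genes higher. The 66 became 34 without a filter (0.329% of all genes called higher). They became 0 with library quality weights and 0 with only the groups compared, where 0% of all genes were called. Quality weights also gave 63 members at day 5, with 33 higher and 30 lower (27.7% and 29.4% of all genes). As reported there were 38, with 11 and 27. In Cherry- cells the weights gave 5 (7.09% of all genes higher and 2.71% lower), against 0 as reported. For the difference between the days they gave 1, called higher (0.00631% of all genes higher and 0.107% lower), against 0 as reported. A rise of at least 1 left 46 genes, and dropping the condition on overlap gave 208. Fewer samples or a stricter limit account for part of this by construction, and for the remaining shifts the cause was not tested. With the replicate block the 66 became 26 (0.353% of all genes called higher), where the numbers pair nothing (Cherry+ correlations between the days -0.391, -0.194 and -0.443). The block gave 37 members at day 5, with 10 higher and 27 lower (19.4% and 19.6% of all genes). At day 10 it gave 74 (74 as reported), with 69 higher and 5 lower (17.5% and 21.7%). For the difference between the days it gave 0 (0% of all genes). At day 10 the pair correlations were -0.142, 0.572 and 0.107, and for 2 of 6 libraries the best match carried their own number, against 6 of 6 at day 5. Of 192 recomputed differences of the 4 named genes, all kept their sign. Leaving out libraries could turn only the day 10 difference of uc008ppl.2, because in the other cases the groups compared do not overlap. The tally is therefore no measure of robustness.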

Other observations

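The same conditions with the sign turned, for genes lower at day 10 in Cherry+ cells only, were met by 307 genes. With Cherry+ and Cherry- cells exchanged in the other conditions but not in the day 5 window, they were met by 114, against the 117 members described above. Without the condition on the level 168 genes met the rule, and with a limit of 0.25 on the change in Cherry- cells 82 did.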
